A study of Arabidopsis thaliana with 10 samples.

Results

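Transcript levels of 4 genes of flavonoid and anthocyanin synthesis were examined in Arabidopsis rosettes of 3 genotypes. The genes are DFR, UF3GT, AT4G14090 and UGT78D1. They were chosen by name, as the probe sets annotated with 1 gene among these 4, and each gene had 1 probe set, so that 4 of the 22746 non-control probe sets on the array are described. The name of none of the 4 probe sets marks it as shared between transcripts. The 10 arrays, 1 sample each, comprise wild type Col 0 (3 arrays), abi4-102 (3 arrays), a line labelled as insensitive to abscisic acid and carrying a mutant allele of the transcription factor gene ABI4, and vtc1 (4 arrays), a line labelled as defective in vitamin C (ascorbate). All plants were 42 days old and had grown on compost with 8 h of light a day at 200 µmol m-2 s-1, with days at 23 °C and nights at 18 °C, and whole rosettes were frozen. Each mutant is represented by 1 line, and no treatment was applied to any group. The titles call the samples biological replicates without saying whether a sample is 1 plant or a pool. P-values reflect the spread among samples, and how much of it is spread among plants or technical is not known.

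Flavonoids are made from chalcone, which is cyclised and oxidised to dihydroflavonols. From there one branch leads to the flavonols, which act as colourless sunscreens, and the other leads through DFR to the anthocyanins, the red and purple pigments that collect in the vacuoles of stressed or brightly lit leaves. Glycosyltransferases then attach sugars to both kinds of molecule, which makes them stable and soluble. DFR, dihydroflavonol reductase, opens the anthocyanin branch. UF3GT and AT4G14090 add sugars to anthocyanins or their precursors, and UGT78D1 adds rhamnose to flavonols.

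Intensity, the authors' deposited brightness of a probe set on a linear scale, had a median of 42.6 to 45.6 on the 10 arrays. The highest of 27 Bacillus control probe sets, which match no plant transcript, stood at 15.2 to 19.8 and is called the control level here. Genes active in green leaves were bright on every array, with RCA, the activase of Rubisco, at 5709 to 7522. EXPA7, a root hair expansin, lay at 16.9 to 29.9. The spike-in controls of the hybridization had a mean log2 intensity of 8.82 ± 0.05 (SD, n = 3) on the wild-type arrays, 8.79 ± 0.04 (n = 3) in abi4-102 and 8.59 ± 0.12 (n = 4) in vtc1. RNA integrity can be read from the actin control, whose 3' probe set exceeded its 5' probe set by 1.83 ± 0.23 (log2) on wild-type arrays, by 1.48 ± 0.11 in abi4-102 and by 1.57 ± 0.07 in vtc1. Fits with the arrays scaled on the spike-in probe sets are among the alternatives given below. The cause of the spike-in difference and the part of RNA integrity in the results were not tested.

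The question put to the abi4-102 arrays is how rosettes of that line differ from Col 0. All 4 genes rose in abi4-102, and for each of them every abi4-102 array lay above every wild-type array. Over all probe sets, 18.8% were called higher (limma adjusted p under 0.05) and 22.9% had abi4-102 arrays wholly above the wild type. The median log2 change of the 4 genes was 0.77, against -0.01 over all probe sets. These 4 genes were singled out with earlier results of the same arrays known, so their direction is not independent evidence. In whole rosettes, more cells of a type and more RNA per cell cannot be told apart.

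DFR, the first enzyme of the anthocyanin branch, was below the control level on all 3 wild-type arrays, at 10.3, 12.9 and 10.3. In abi4-102 it stood at 25.9, 19.9 and 15.96. The first pair of these exceeded the control level of their own arrays and the last, on replicate 3, did not. The means were 20.6 ± 5.02 (SD, n = 3) and 11.2 ± 1.52 (n = 3). With the wild-type arrays set to their control level, DFR was 1.17-fold higher in abi4-102. That value takes abi4-102 replicate 3 as read, though it lay below its control level. It is therefore not a strict lower bound and was not itself tested. The fitted log2 change was 0.81 with a pseudocount of 1 (limma adjusted p = 1.3e-04) and 0.42 with a pseudocount of 16.

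UF3GT, annotated as a flavonoid glucosyltransferase, read 33.0, 39.0 and 30.1 on the wild-type arrays. On the abi4-102 arrays it read 57.3, 54.0 and 59.2. The groups were well apart, and the abi4-102 arrays differed less among themselves than the wild-type arrays. The rise was 1.66-fold (95% confidence interval 1.46 to 1.89, limma adjusted p = 7.8e-06), from 34.02 ± 4.52 (SD, n = 3) to 56.8 ± 2.67 (n = 3). The log2 change was 0.73 with a pseudocount of 1 and 0.55 with a pseudocount of 16.

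AT4G14090, an anthocyanidin glucosyltransferase, changed most of the 3 genes that lay above the control level on every array. Its wild-type arrays read 20.5, 20.7 and 19.2, just above the control level of 16.7 to 18.1 on those arrays. Its abi4-102 arrays read 58.2, 61.9 and 55.6. All 3 abi4-102 arrays were thus far above both the wild type and the control level. The rise was 2.82-fold (95% confidence interval 2.49 to 3.18, limma adjusted p = 1.4e-09). The log2 change was 1.49 with a pseudocount of 1 and 1.04 with a pseudocount of 16. The latter is below the interval's lower end of 1.32 on the log2 scale, so the size depends on the pseudocount. By log2 change AT4G14090 ranked 63 among the 22746 probe sets, UF3GT 550 and UGT78D1 888, and DFR is given no rank because its wild-type level is only a bound.

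UGT78D1, the flavonol rhamnosyltransferase, was almost the same on the 3 wild-type arrays, at 68.5, 70.3 and 68.5. The abi4-102 arrays stood at 96.3, 107 and 112. The rise was 1.51-fold (95% confidence interval 1.31 to 1.73, limma adjusted p = 1.3e-04), the smallest among those 3 genes.

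**Figure D1:**
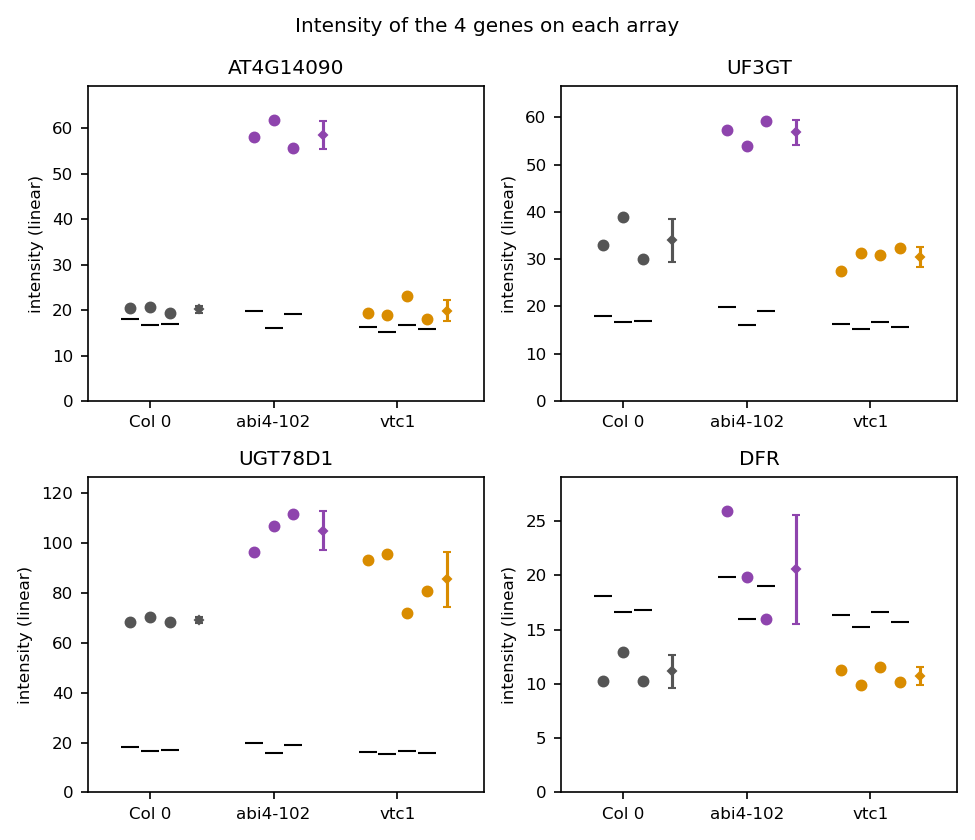
Intensity (linear scale) of AT4G14090, UF3GT, UGT78D1 and DFR on each of the 10 arrays; points are arrays, diamonds with bars are the mean ± SD of a genotype, and black dashes are the control level of the same array. For all 4 genes the abi4-102 points lie above every wild-type point, and DFR passes the control level on 2 of 3 abi4-102 arrays and on none of the wild-type or vtc1 arrays.

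The same question was put to the vtc1 line. There 1 of the 4 genes, UGT78D1, rose and the other 3 were not called, whereas 18.1% of all probe sets were called higher and 18.5% lower. Under spike-in scaling those shares were 45.2% and 5.35%, and UGT78D1 was again the only gene of the 4 called. UGT78D1 was also the only gene of the 4 whose vtc1 arrays all lay above the wild type, as those of 20.3% of all probe sets did. The median log2 change of the 4 genes was -0.03, as it was over all probe sets.

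UGT78D1 read 93.3, 95.7, 71.9 and 80.7 on the vtc1 arrays. Replicates 1 and 2 lay close to the abi4-102 arrays, while replicate 3 was just above the highest wild-type array at 70.3. The mean of 85.4 ± 11.2 (SD, n = 4) was 1.22-fold higher than the 69.1 ± 1.06 (n = 3) of the wild type (limma adjusted p = 0.016). The call was lost without vtc1 replicate 1 (log2 change 0.25, adjusted p = 0.0531) or replicate 2 (0.23, adjusted p = 0.0539), with adjusted p of 2.3e-06 to 0.0539 over the 15 alternatives. The log2 change grew from 0.29 to 0.53 when the arrays were scaled on the spike-in probe sets, a scaling that raised the array-wide median change to 0.21.

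DFR stayed below the control level on all 4 vtc1 arrays, at 11.3, 9.92, 11.6 and 10.2, so no fold is given against the wild type. UF3GT read 27.5, 31.3, 30.8 and 32.3, within or below the wild-type range. Its log2 change was -0.15 (95% confidence interval -0.32 to 0.03, limma adjusted p = 0.18). That change was called lower without wild-type replicate 3 (-0.23, adjusted p = 0.0479) and was 0.09 under spike-in scaling. AT4G14090 read 19.3, 18.9, 23.2 and 18.1, around the wild-type values. Its log2 change was -0.02 (95% confidence interval -0.19 to 0.14, limma adjusted p = 0.84), and 0.21 under spike-in scaling. For both genes the upper end of the interval in vtc1 lay below the lower end of that in abi4-102, of 1.32 for AT4G14090 and 0.55 for UF3GT on the log2 scale.

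The direct comparison of the mutants asks where the lines differ from each other. All 4 genes were lower in vtc1 than in abi4-102, and no vtc1 array of any of them reached the lowest abi4-102 array. Over all probe sets, 21.2% were called lower in vtc1 and 23.0% had vtc1 arrays wholly below abi4-102. AT4G14090 was 2.87-fold lower in vtc1, at 19.9 ± 2.27 (SD, n = 4) against 58.6 ± 3.18 (n = 3; limma adjusted p = 9.3e-10). UF3GT was 1.84-fold lower, at 30.5 ± 2.07 against 56.8 ± 2.67 (limma adjusted p = 5.8e-07). DFR, at 10.7 ± 0.81 against 20.6 ± 5.02, was 1.25-fold lower with the vtc1 arrays set to their control level. Replicate 3 of abi4-102 was again taken as read, so this fold is not a strict lower bound, and it was not tested. The fitted log2 change of DFR was -0.85 (limma adjusted p = 3.4e-05). For these 3 genes abi4-102 was called apart from both other genotypes, and no difference was called between vtc1 and wild type.

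UGT78D1 was ordered otherwise, with wild type lowest, vtc1 next and abi4-102 highest. It was 1.23-fold lower in vtc1 than in abi4-102 (limma adjusted p = 0.012), and the nearest arrays of the groups were 95.7 in vtc1 and 96.3 in abi4-102. This call was lost without abi4-102 replicate 3 (log2 change -0.26, adjusted p = 0.0612) and under spike-in scaling (-0.10, adjusted p = 0.43), with adjusted p of 0.0049 to 0.43 over the 15 alternatives.

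The rest of the pathway was read through 57 listed genes, the 4 above included. Only 10 had a probe set labelled with that gene alone in the annotation used, in which 8730 probe sets were unnamed: 3 of 10 structural enzymes, 7 of 17 genes of modification and transport, and none of 22 regulators or 8 enzymes of the phenylpropanoid entry. The MYB and bHLH regulators of anthocyanin synthesis, chalcone synthase and LDOX, the enzyme after DFR, were therefore not analysed here. Of the 6 measured genes beside the 4, 2 rose and 1 fell in abi4-102 (median log2 change 0.14), where 34.9% of all probe sets were called in either direction. These 3 calls were 2 under spike-in scaling or without wild-type replicate 3, and 4 without abi4-102 replicate 2. In vtc1, 1 rose and 1 fell (median -0.09), where 36.6% of all probe sets were called, so these 2 of 6 are near the array-wide share. Against abi4-102, 3 were lower in vtc1 and none was higher (median -0.24), where 39.0% of all probe sets were called and 21.2% were called lower, with a median of -0.02. The 3 include AT5MAT, which lay below the control level on every array. They were 2 without abi4-102 replicate 1 or 3, under spike-in scaling or with dim probe sets left out, and 4 without vtc1 replicate 3.

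UGT78D2, which adds glucose to flavonols and anthocyanidins and is a close relative of UGT78D1, read 74.5, 76.1 and 85.8 in wild type. In abi4-102 it read 97.8, 105 and 95.9, and in vtc1 77.4, 72.4, 67.0 and 65.7. It followed the order of UF3GT, with abi4-102 above the others, but with a smaller change. The rise in abi4-102 was 1.26-fold (limma adjusted p = 0.0029), and vtc1 was 1.41-fold lower than abi4-102 (limma adjusted p = 5.4e-05). Its log2 change of -0.16 in vtc1 against wild type was not called (limma adjusted p = 0.11). It was called lower after quantile normalization or subtraction of array medians (-0.21 each), and was 0.08 under spike-in scaling.

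AT1G06000, listed among the modification genes as UGT89C1, rose in both mutants. It read 116, 112 and 131 on wild-type arrays, 160, 163 and 162 in abi4-102, and 158, 170, 150 and 156 in vtc1. The wild-type arrays lay wholly below both mutants, whose arrays overlapped. The rises were 1.35-fold in abi4-102 (limma adjusted p = 1.6e-04) and 1.32-fold in vtc1 (limma adjusted p = 1.4e-04). The log2 difference between the mutants was -0.03 (95% confidence interval -0.18 to 0.11), and with spike-in scaling the log2 rise in vtc1 was 0.64 against 0.40 as deposited. Both comparisons share the wild-type arrays.

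CHIL, a chalcone isomerase-like protein that assists the early steps of the pathway, went the other way. It read 68.2, 61.8 and 77.1 on wild-type arrays, 52.7, 57.5 and 57.5 in abi4-102, and 41.8, 37.7, 42.4 and 41.2 in vtc1. The 3 groups did not overlap. CHIL was 1.67-fold lower in vtc1 than in wild type (limma adjusted p = 7.8e-07) and 1.23-fold lower in abi4-102 (limma adjusted p = 0.0087). The call in abi4-102 was lost under spike-in scaling (log2 change -0.26, adjusted p = 0.0624) and without wild-type replicate 3 (-0.21, adjusted p = 0.0532), with adjusted p of 0.0027 to 0.0624 over the 14 alternatives. CHIL was also 1.36-fold lower in vtc1 than in abi4-102 (limma adjusted p = 1.8e-04), with a log2 difference of -0.24 under spike-in scaling against -0.45 as deposited.

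The other 3 genes were dim. BAN, anthocyanidin reductase, which diverts anthocyanidins to the tannins of the seed coat, read 16.1 to 23.7 over the 10 arrays and was not called in any comparison. UGT78D3, a relative of UGT78D1 and UGT78D2, and AT5MAT, an anthocyanin malonyltransferase, lay below the control level on every array. AT5MAT was called lower in vtc1 than in abi4-102 (limma adjusted p = 0.015), but no fold is given for values below the control level on both sides. The call was lost without abi4-102 replicate 1 (adjusted p = 0.0756) or replicate 3 (0.101) and under spike-in scaling (0.411), with adjusted p of 1.2e-04 to 0.411 over the 14 alternatives.

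**Figure D2:**
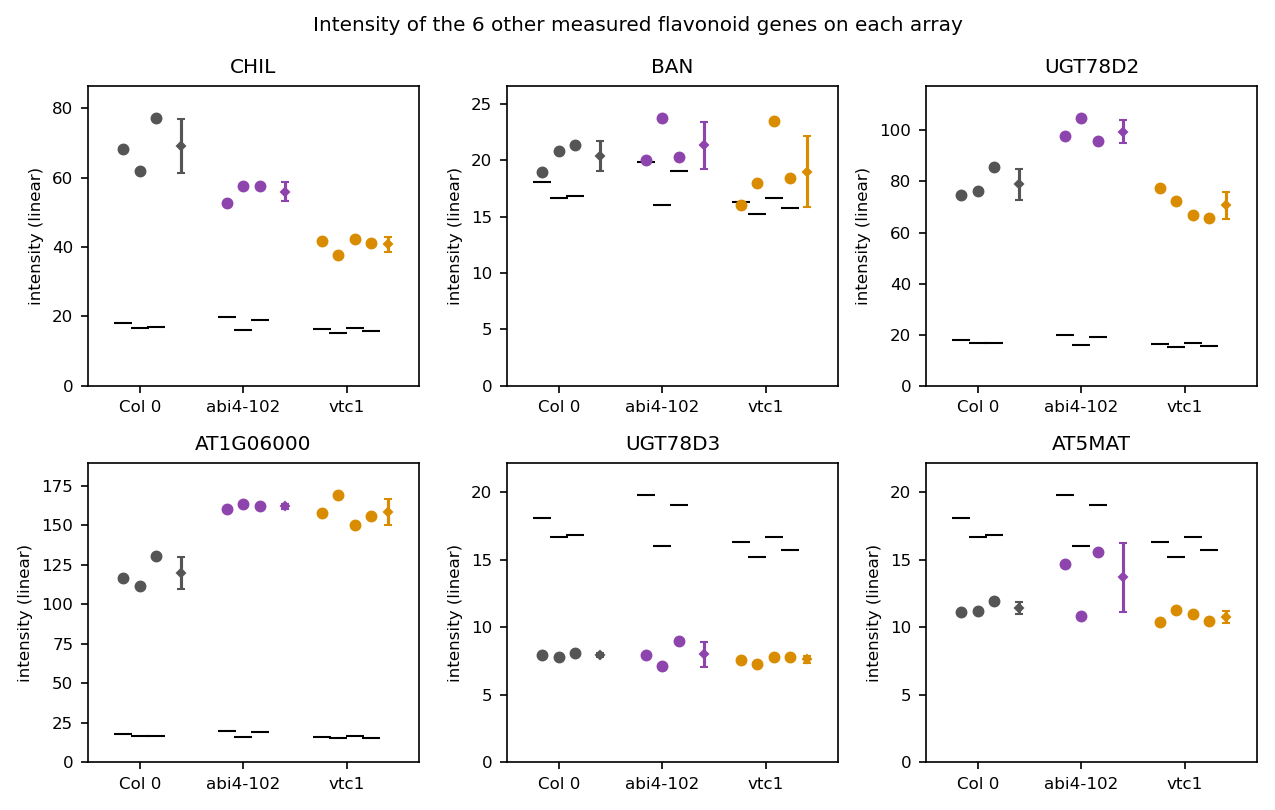
Intensity (linear scale) of the 6 other measured genes of the pathway on each array, drawn as points with the genotype's mean ± SD as diamonds and bars and the control level as black dashes. UGT78D2 is highest in abi4-102, AT1G06000 is higher in both mutants than in wild type, CHIL is lower in both and lowest in vtc1, and UGT78D3 and AT5MAT lie below the control level on every array.

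**Figure D3:**
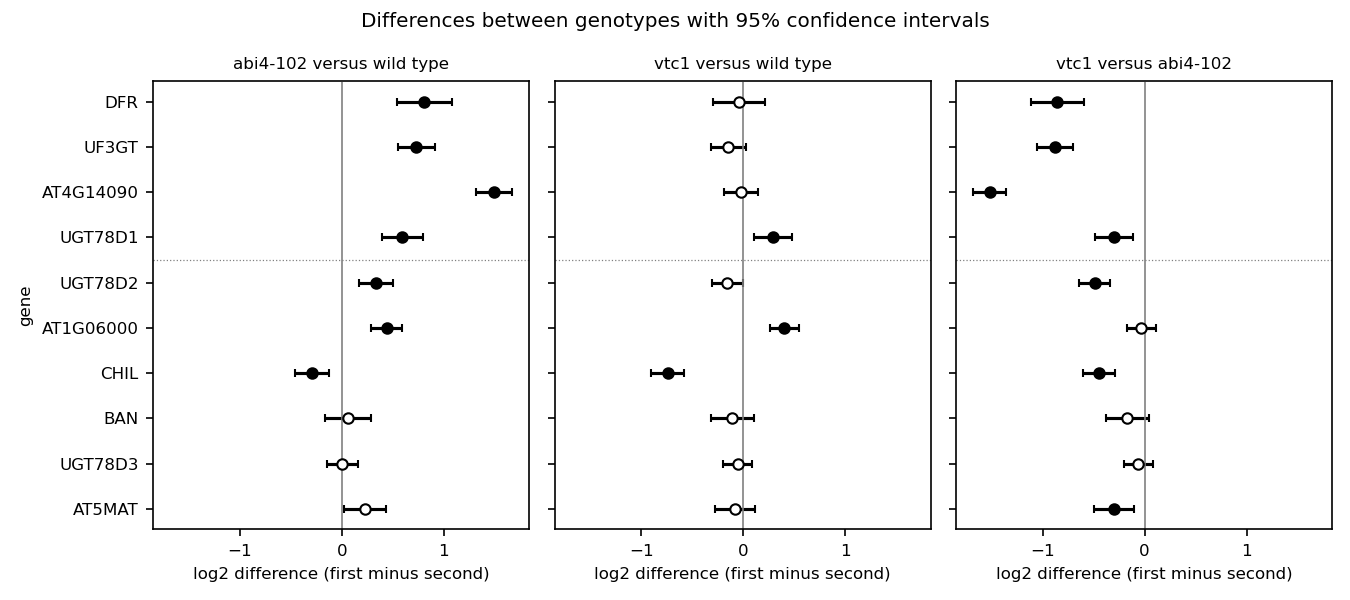
Log2 difference of each of the 10 measured pathway genes in the 3 comparisons, with 95% confidence intervals from limma; filled points were called at an adjusted p under 0.05 and open points were not, and the dotted line parts the 4 genes from the 6 others. In abi4-102 the 4 genes run from 0.59 to 1.49, and in vtc1 against wild type 1 of the 4 is called. For DFR, UGT78D3 and AT5MAT the fitted values rest on intensities near or below the control level.

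The 3 glycosyltransferases among the 4 genes belong to a large family. Outside the flavonoid lists, 45 further genes had a probe set labelled with 1 gene and a name or synonym of a UDP-glycosyltransferase. Family genes named only by a locus code may be missing from this set. Of these 45, 10 rose and 8 fell in abi4-102, and their median log2 change was 0.00, near the -0.01 of all probe sets. The 40% called in either direction is close to the 34.9% of all probe sets. In order of log2 change over the 48 genes, AT4G14090 came first, UF3GT next and UGT78D1 in place 4. UGT73D1 stood between UF3GT and UGT78D1, at 0.71 (limma adjusted p = 2.6e-05). It passed the control level on 1 of 3 wild-type arrays, so its log2 changes are fitted values near that level. In vtc1, with the values as deposited, 7 of the 45 rose and 8 fell, or 33.3% called against 36.6% of all probe sets. There UGT73D1 was highest, at 1.17 (limma adjusted p = 3.1e-08), UGT78D1 came in place 6, and AT4G14090 and UF3GT in places 25 and 40. The order describes these 48 genes on these arrays and was not tested. The 3 genes were chosen with earlier results of the same arrays known, so their places are not independent evidence.

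**Figure D4:**
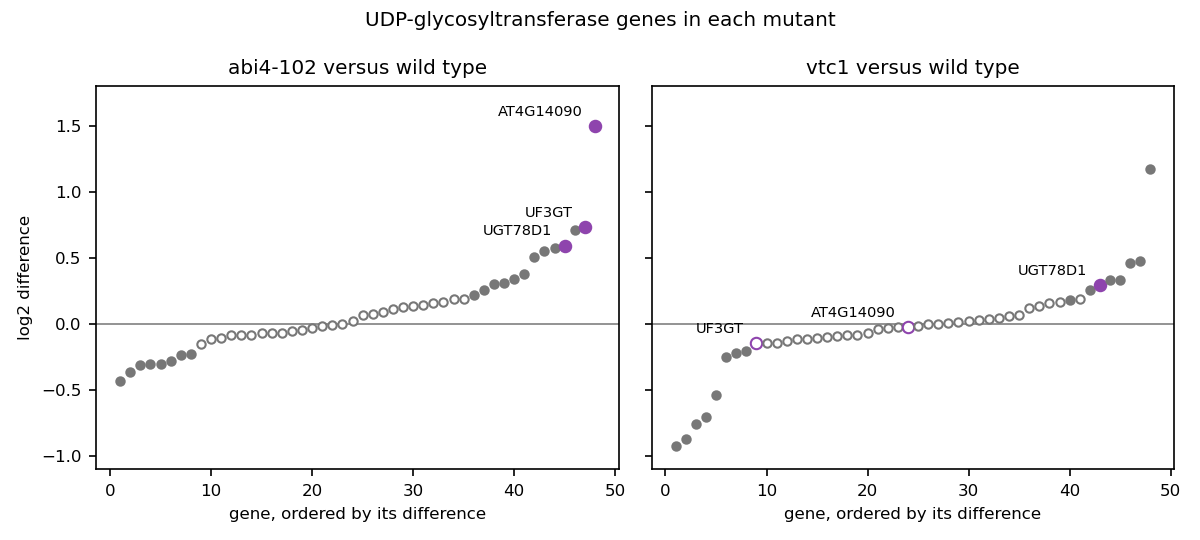
Log2 difference of 48 UDP-glycosyltransferase genes against wild type, in abi4-102 on the left and in vtc1 on the right, each panel ordered by its own differences; purple points are AT4G14090, UF3GT and UGT78D1, grey points are the 45 others, picked by name or synonym, and filled points were called. The purple points are at places 1, 2 and 4 from the top in abi4-102 and at places 6, 25 and 40 in vtc1.

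For each of the 4 genes, the 3 genes with the most similar profile were found by the root mean square difference of log2 values over the 10 arrays, each profile set to 0 at its wild-type mean. For each, 8302 other genes (8303 for DFR) above the control level on all arrays of at least 1 genotype were searched. The neighbours were chosen on these same arrays, so a pattern they share with the gene follows from the choice. Nearest to AT4G14090 were AT2G16000 (0.14), AT2G20670 (0.14) and AT5G05600 (0.23), against a median distance of 0.84. AT5G05600 was also called higher in vtc1 than in wild type (log2 change 0.25, limma adjusted p = 0.0082). AT2G20670 went from 83.5 ± 4.85 (SD, n = 3) in wild type to 228 ± 21.3 (n = 3) in abi4-102 and was 81.6 ± 8.89 (n = 4) in vtc1, which is the same pattern of 1 high genotype. Nearest to UF3GT were AT3G15630 (0.12), AT1G23390 (0.13) and AT2G03980 (0.14), with a median distance of 0.47. Nearest to DFR were BZIP53, a transcription factor of the basic leucine zipper class (0.13), AT4G15690 (0.15) and AT4G20320 (0.16), with a median distance of 0.51. DFR itself lay below the control level on 8 of 10 arrays and would not have passed the filter set for the other genes, so its distances depend on values at that level and on the pseudocount. BZIP53 stood at 327 ± 11.7 on wild-type arrays, 574 ± 61.7 in abi4-102 and 336 ± 6.82 in vtc1.

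Nearest to UGT78D1 were AT1G35190 (0.08), AT1G75960 (0.08) and AT5G44170 (0.09), with a median distance of 0.43. AT1G75960 stood at 17.7 ± 0.74 on wild-type arrays, where the control level was 16.7 to 18.1. Its log2 change in abi4-102 was 0.67, and 0.41 with a pseudocount of 16, so its distance depends on values near that level. AT1G35190 stood at 82.0 ± 2.75 on wild-type arrays, 120 ± 7.63 in abi4-102 and 104 ± 6.13 in vtc1, with vtc1 between the others. None of these 12 nearest genes is on the pathway lists. Of the 57 listed genes only 10 were measured, and UGT78D3 and AT5MAT could not pass the filter. With so few among 8302 genes searched, this count cannot show whether pathway genes share profiles. Among the 3 genes above the control level, UF3GT and UGT78D1 had the smallest distance (0.33) and AT4G14090 and UGT78D1 the largest (0.56). Yet 1091 genes lay nearer to UF3GT than UGT78D1 did. For AT4G14090, 55 genes lay nearer than UF3GT (0.45) and 247 lay nearer than UGT78D1. The number of genes as near as these depends on the size of the change, since 947 genes lay within 0.25 of UGT78D1 and 5 within 0.25 of AT4G14090.

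**Figure D5:**
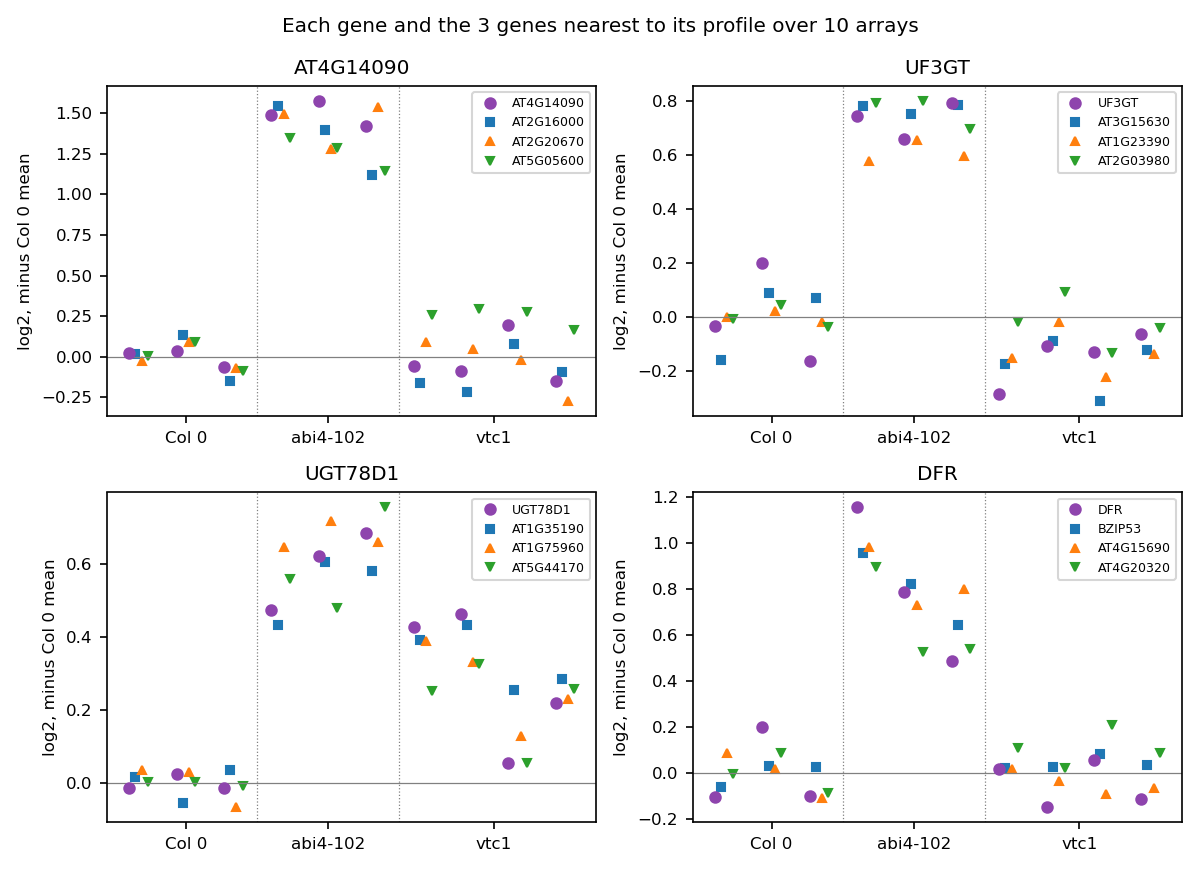
Log2 intensity minus the wild-type mean on each of the 10 arrays for each of the 4 genes (purple circles) and the 3 genes nearest to its profile; dotted lines part the genotypes. The neighbours of AT4G14090, UF3GT and DFR are highest in abi4-102 and nearer the wild type in vtc1, where AT5G05600 lies above every wild-type array, and those of UGT78D1 are above the wild type in both mutants.

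Markers of cell types that rosettes can hold were measured only in part. Of the guard cell list 2 of 5 genes were measured, and their summed intensity was 212 to 224 on wild-type arrays, 287 to 338 in abi4-102 and 167 to 181 in vtc1. AT1G22690 of that list rose in abi4-102 (log2 change 0.66, limma adjusted p = 4.8e-06), and FMA, which specifies guard cells, had a log2 change of -0.08 that was not called. Of the phloem list 1 of 3 genes was measured, AT5G18600, at 1048 to 1088 on wild-type arrays, 1386 to 1515 in abi4-102 and 885 to 969 in vtc1. Of the root list 2 of 4 genes were measured, and their sum was 38.0 to 46.7 on wild-type arrays, 32.0 to 38.1 in abi4-102 and 33.98 to 41.2 in vtc1. None of the 4 epidermis, 5 flower or 3 seed markers had a probe set labelled with it alone, so they were not analysed here. Their part in the rises of the flavonoid genes was not tested.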

How the data were processed

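Each sample was total RNA copied to biotin-labelled cRNA and hybridised to a single-colour oligonucleotide array, per the labels' protocols. The authors deposited 1 table of intensity on a linear scale (22810 probe sets, 10 arrays). The sources used here do not give the method of probe summary or array scaling. The 64 control probe sets were set aside. Genes were named from the platform annotation, updated through a TAIR10.1 gene table: 13513 probe sets carried 1 gene (13436 matched that table), 503 several, and 8730 were unnamed. Of several probe sets for 1 gene the brightest was used.

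Intensities were taken as log2(value + 1), so fold changes understate those of dim probe sets. One linear model per probe set took all 10 arrays, with the 3 genotypes as groups and no covariate (limma 3.58.1, R 4.3.3, lmFit and eBayes, two-sided, Benjamini-Hochberg over 22746 probe sets, called at adjusted p under 0.05). Where 1 group lay below the highest Bacillus control on every array, its arrays were set to that level for the fold. The other group was taken as read. The fit was tested on simulated data, and plots were drawn with matplotlib 3.10.9. Precision is limited by the number of arrays.

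The genes, lists and tests were chosen with earlier results of these data known, and the set of UDP-glycosyltransferase genes was formed after the files were read. By rule, the text names the 4 genes, the other measured pathway genes that were called (up to 6 a list), and the 3 nearest profiles of each of the 4; BAN, UGT78D3 and UGT73D1 were named beyond it. Alternatives were a pseudocount of 16, quantile, median and spike-in scaling, a filter on dim probe sets, fits of 2 groups, a mean-variance trend, a replicate block, and leaving out each array in turn.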

Additional observations from a re-analysis of the deposited data

How the results depend on the processing

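The rises of the 4 genes in abi4-102 kept their direction and call in all 55 results, from 14 alternative fits for each gene and 13 for DFR. DFR has no value with dim probe sets left out, which keeps 15264 of 22746. In vtc1 against wild type, the count of the 4 genes called, 1 as reported, ran from 0 to 2 when single arrays were left out. It was 0 without vtc1 replicate 1 or 2 and 2 without wild-type replicate 3. Signs turned in changes that were not called. In vtc1 against wild type under spike-in scaling these were AT4G14090 (0.21), DFR (0.19), UGT78D3 (0.18), AT5MAT (0.16), BAN (0.13), UF3GT (0.088) and UGT78D2 (0.079). AT4G14090 also turned under quantile normalization (0.019) and with the replicate block (0.017). It ran from -0.097 to 0.017 when single arrays were left out, above 0 without vtc1 replicate 4, and DFR from -0.097 to 0.056, above 0 without wild-type replicate 2. In vtc1 against abi4-102, AT1G06000 (0.17), UGT78D3 (0.14) and BAN (0.034) turned under spike-in scaling, and UGT78D3 ran from -0.13 to 0.014, above 0 without abi4-102 replicate 3. In abi4-102, UGT78D3 turned after median subtraction (-0.0094) and ran from -0.070 to 0.078, below 0 without wild-type replicate 2 or abi4-102 replicate 3. BAN ran from -0.014 to 0.10, below 0 without abi4-102 replicate 2. AT5MAT, below the control level throughout, was called in abi4-102 without replicate 2 (0.38), and its call between the mutants was lost without abi4-102 replicate 1 or 3 (-0.25 and -0.21), under spike-in scaling (-0.10) and, having no value, with dim probe sets left out. BAN was called lower in vtc1 than in abi4-102 without vtc1 replicate 3 (-0.27). The cause of these changes was not tested.

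Scaling moved the balance of directions over all probe sets. Of the calls in vtc1 against wild type 49.5% were higher as deposited, 36.4% after median subtraction and 89.4% under spike-in scaling, and between the mutants 45.7%, 37.5% and 86.7%. Any pairing by replicate number was weak: same-numbered deviations correlated at -0.05 to 0.10 over all probe sets. For vtc1 and wild type these correlations were 0.04 to 0.10. With replicate number as a block, 4, 1 and 4 of the 4 genes were called in the 3 comparisons, as without it, and 7611, 7414 and 7971 of all probe sets against 7928, 8327 and 8872. Samples correlated best with their own number in 6 of 6 cases for vtc1 and wild type, 2 of 6 for abi4-102 and wild type and 0 of 6 between the mutants. Signal over background limits DFR, UGT78D3, AT5MAT and BAN.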

Other observations

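The 4 genes differed in how even their replicates were. The SD of UGT78D1 over the 4 vtc1 arrays was 0.19 on the log2 scale, larger than that of 98% of the 500 probe sets nearest to it in mean level, while its SD in wild type of 0.02 was larger than that of 3.4% of them. DFR varied most in abi4-102, with an SD of 0.33 over 3 arrays, larger than that of 99.4% of its 500 neighbours in level. Those neighbours were picked by the mean over all 10 arrays, most of which had DFR below the control level. In abi4-102 DFR passed that level on 2 of 3 arrays, so this share rests on values around it. AT4G14090 was even in wild type and abi4-102 (0.05 and 0.08) and less so in vtc1 (0.15).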
